A study of Mus musculus with 18 samples.

Results

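The proteins of the cytosolic ribosome were followed here through 78 of their genes in mouse blood after irradiation. The genes were chosen by name: they are those whose array name was Rpl or Rps followed by a number (with an a, x or l ending allowed), together with Rplp0, Rplp1, Rplp2 and Rpsa. They had 130 of the 41174 probes and were 78 of the 20830 named genes, 46 of the large subunit and 32 of the small. The study exposed male C57BL/6N mice of 8 to 12 weeks to gamma rays from a cesium source and drew whole blood by cardiac puncture 6 h later. Sham-treated controls (0 Gy) had 7 mice, of which 5 gave RNA purified with a RiboPure-Blood kit and 2 with a PAXgene kit. The 2 Gy group had 5 mice, 4 with RiboPure and 1 with PAXgene, and the 8 Gy group had 6 mice, all with RiboPure. Globin RNA was removed from every sample, and each mouse has 1 single-colour array. The mixed cells of whole blood were not separated, so fewer cells of a type and less RNA per cell cannot be told apart.

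Each cytosolic ribosome has a small subunit, which reads the messenger RNA, and a large subunit, which joins the amino acids. The ribosomal protein messenger RNAs are short and abundant. Most start at a cytosine followed by a run of pyrimidines, the terminal oligopyrimidine tract, through which the mTOR pathway sets how fast they are translated. A few members also act outside the ribosome: free Rpl5 and Rpl11 bind Mdm2, the ligase that marks p53 for destruction, and Rps27l, a close relative of Rps27, is a known p53 target. In blood, lymphocytes and young red cells carry much ribosomal protein messenger RNA.

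The sequence around the start of 5 of these genes is shown because the results below turn on them, and because Rps27 and its relative Rps27l gave different values. Windows from RefSeq (GRCm38.p6) were held for 58 of the 78 genes. The stretches below run from 100 bases before the annotated start to 20 bases into the transcript, on the gene's own strand. Capitals mark CCGGAAG on either strand, the core that ETS factors bind, and CTTTCC on the gene's strand within 20 bases of the start, a short form of the oligopyrimidine tract.
Rps27, chr3:90213629-90213748, minus strand: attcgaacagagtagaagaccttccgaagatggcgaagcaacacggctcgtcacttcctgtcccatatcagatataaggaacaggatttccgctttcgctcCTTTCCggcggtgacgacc
Rps27l, chr9:66945986-66946105, plus strand: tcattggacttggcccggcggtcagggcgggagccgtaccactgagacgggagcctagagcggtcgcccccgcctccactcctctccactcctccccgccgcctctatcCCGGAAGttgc
Rpl38, chr11:114668480-114668599, plus strand: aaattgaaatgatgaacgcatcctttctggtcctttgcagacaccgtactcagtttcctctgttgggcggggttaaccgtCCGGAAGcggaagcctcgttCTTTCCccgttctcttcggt
Rpl41, chr10:128549149-128549268, minus strand: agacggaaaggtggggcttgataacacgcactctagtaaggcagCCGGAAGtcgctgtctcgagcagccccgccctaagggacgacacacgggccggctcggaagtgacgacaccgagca
Rpl27a, chr7:109519095-109519214, plus strand: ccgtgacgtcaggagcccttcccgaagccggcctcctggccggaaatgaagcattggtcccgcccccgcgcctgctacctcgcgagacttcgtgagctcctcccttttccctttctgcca

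In these stretches CTTTCC lay at the start of Rps27 and Rpl38, and CCGGAAG lay in those of Rps27l, Rpl38 and Rpl41. Over windows of 300 bases (250 before the start), CCGGAAG was present on either strand for 24 of the 58 genes (41.4%), against 9.93% of all 27025 genes with a window. CTTTCC was present on the gene's strand within 20 bases of the start for 10 of the 58 (17.2%), against 2.30% of all genes. Rps27l has another annotated start, and its window there held 2 matches to the p53 half-site consensus (3 purines, C, A or T, A or T, G, 3 pyrimidines), and the window of Rps27 held 1. A p53 half-site was found for 5 of the 58 genes (8.62%) and for 9.55% of all genes. These are matches of letters and not shown to be bound.

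The members lay at the top of every array. The mean rank of a gene's probe among all probes was at or above the 99th percentile for 49 of the 78 genes and at or above the 95th for 73, and 13 of the 100 brightest probes were member probes. All but Rpl3l, the paralogue of Rpl3 found in muscle, were well above background on all 18 arrays. Rpl3l was so on 1 array and was not tested. The brightest were Rplp1 and Rplp2, the acidic stalk proteins of the large subunit (mean percentiles of 99.943 and 99.938), followed by Rpl41 (99.924), Rpl37a and Rps12. The dimmest of the 77 tested were Rpl14 (79.7), Rpl31 (84.6), Rpl27a (91.4), Rpl4 (93.8) and Rps15 (95.3). No member probe was flagged as saturated. The probes standing for the 77 tested genes, 1 per gene, gave 6.47% to 10.5% of all signal on the 0 Gy arrays (median 9.02%). They gave 6.39% to 9.24% on the 2 Gy arrays and 6.27% to 8.65% on the 8 Gy arrays (median 6.62%). The 8 Gy arrays are all RiboPure. At 0 Gy the RiboPure arrays had a median of 8.45% and the PAXgene arrays had 10.3% and 10.1%.

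Arrays differed in brightness: the 75th percentile of the processed signal was 138 to 425 intensity units in the controls, 46.4 to 186 after 2 Gy and 58.4 to 232 after 8 Gy. The comparison was therefore made in scanner values and in deposited values: scanner signals set to each array's 75th percentile, and the authors' deposited table, in which all arrays have nearly the same distribution. Both sets were fitted with limma on dose and kit, with Benjamini-Hochberg adjustment over all genes and a threshold of 0.05. An array labelled 0 Gy stood apart from the others: 0 Gy replicate 5 had a median of 0.08 over 12 p53 target genes (log2, against the median of the 18 arrays), where the other 0 Gy arrays had -2.06 to -1.70 and the 8 Gy arrays 0.05 to 0.84. The array labelled 8 Gy replicate 1 had a median of 1.31 over 15 B cell markers, where the other 8 Gy arrays had -2.39 to -1.07. The family's counts of calls and the Rps27l fold change at 8 Gy are given with and without these arrays. So are the summed levels of B cell, neutrophil and platelet markers.

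In the scanner signals, 6 of the 77 genes rose at 8 Gy against 0 Gy and 1 fell. The share of all 13544 genes called was 12%, with 7.63% higher and 4.4% lower, so the members' 7 calls (9.09%) lie near the background. Their median log2 fold change was 0.06, beside 0.08 for all genes, and 43 of 77 lay above 0. The genes that rose were Rps27l, Rpl41, Rps12, Rpl38, Rps29 and Rpl39, and the gene that fell was Rpl27a. Without 0 Gy replicate 5, 10 rose and 1 fell, where 22.8% of all genes were called. Without 8 Gy replicate 1, 8 rose and 2 fell, where 21.6% were called. The count of rises was 7 without 2 Gy replicate 3 or 4, where 17.5% and 14.1% of all genes were called. It was at most 3 without any one of the other arrays, where at most 8.87% were called. It was 0 when replicate 1, 2 or 4 of the controls or replicate 2, 5 or 6 of the 8 Gy group was set aside. In those fits 2.07% to 6.05% of all genes were called.

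Rps27l showed the largest rise of the family. In the 0 Gy group its log2 level (over the array's 75th percentile) was 3.44 at the lowest, 4.03 at the median and 5.60 at the highest, the last being replicate 5. The 2 Gy arrays, replicates 1 to 5, had 5.52, 5.11, 5.96, 5.44 and 4.97. At 8 Gy the lowest was 5.23, the median 5.49 and the highest 5.74. With replicate 5 set aside, every irradiated array lay above every 0 Gy array. That array was singled out by its high p53 targets, and Rps27l is itself a known p53 target. The separation, and the values below without that array, therefore follow partly from this choice. The log2 fold change was 1.12 ± 0.28 (SE; 2.17-fold, limma adjusted p = 0.0258) at 8 Gy and 1.10 ± 0.28 (adjusted p = 0.0875) at 2 Gy. At 8 Gy it was 1.38 without 0 Gy replicate 5 (limma adjusted p = 0.00129) and 1.08 without 8 Gy replicate 1 (0.0223). With any one array left out it ran from 0.91 to 1.38, and the call was lost, with adjusted p of 0.0505 to 0.0603, when replicate 1, 2 or 4 of the controls or replicate 2, 5 or 6 of the 8 Gy group was left out. Of 16 other settings, 8 also left it above the threshold, with log2 fold changes of 0.51 (normexp background correction, 0.29) to 1.13 (RiboPure arrays alone, 0.0605).

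Its relative Rps27, a zinc-binding protein of the small subunit, was bright on all arrays. Its log2 level was 9.22 ± 0.50 (SD, n = 7) at 0 Gy, 9.09 ± 0.60 (n = 5) at 2 Gy and 8.96 ± 0.21 (n = 6) at 8 Gy. The 60-base probes of both genes share no run longer than 6 bases. The difference between them within an array is the same under any scaling by 1 factor per array. Rps27l minus Rps27 was -4.97 ± 0.93 (SD, n = 7) at 0 Gy, -3.69 ± 0.96 (n = 5) at 2 Gy and -3.45 ± 0.18 (n = 6) at 8 Gy.

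The 8 Gy arrays lay between -3.64 and -3.25 and the 0 Gy arrays between -6.08 and -3.57, the highest again being replicate 5. The difference was 1.52 at 8 Gy, a 2.87-fold change of Rps27l relative to Rps27 (exact permutation test, 2-sided, p = 0.00466, adjusted over both doses 0.00932). It was 1.28 at 2 Gy (exact permutation p = 0.0467, adjusted 0.0467). The test has no kit term, and the PAXgene controls had the lowest 0 Gy values, -6.08 and -5.89. Among RiboPure arrays alone the difference was 1.12 at 8 Gy, 2.17-fold (exact permutation, adjusted p = 0.013), and 1.23 at 2 Gy (0.0317). On the 1 slide that held 0 and 8 Gy arrays the difference was 1.00, and on the 3 slides that held 0 and 2 Gy arrays it was 0.52, 1.11 and 0.99. The slide with 1.11 had replicate 5 as its 0 Gy array. Rps27l itself differed by 0.36 there, the rest being a lower Rps27, and by 0.85 and 1.17 on the slides with 0.52 and 0.99. In the deposited table the difference between Rps27l and Rps27 was 1.74 at 8 Gy (exact permutation, adjusted p = 0.00466) and 1.55 at 2 Gy (0.0114). With 1 array set aside, the adjusted p (exact) was 0.00433 to 0.0152 for 8 Gy. For 2 Gy it was 0.0152 to 0.118 and missed the threshold when replicate 1, 3, 4, 6 or 7 of the controls or any RiboPure array of the 2 Gy group was set aside.

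**Figure D1:**
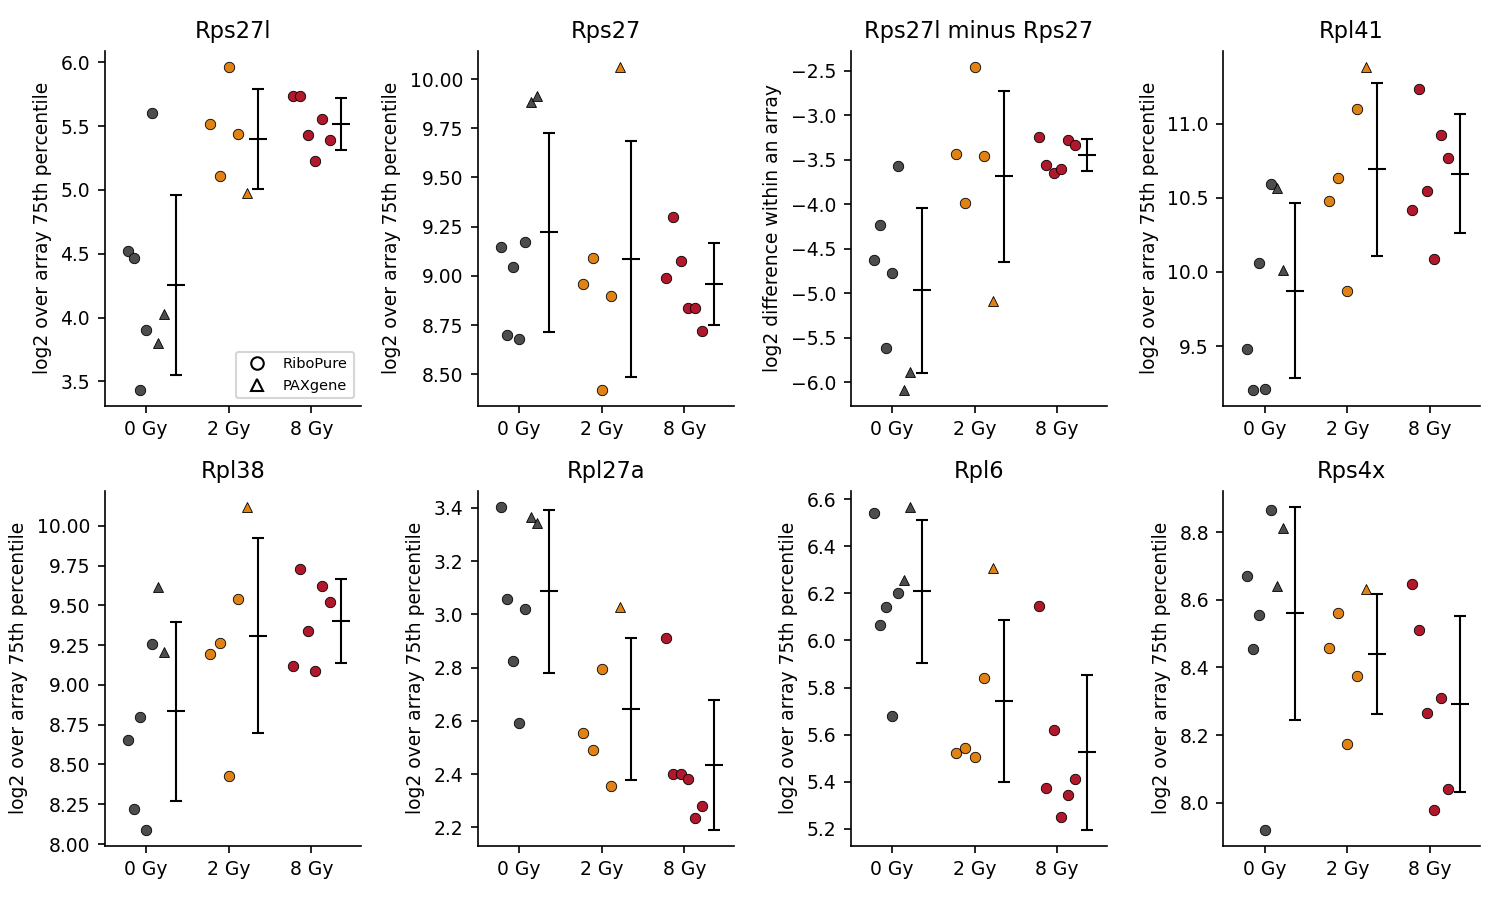
Log2 level over the array's 75th percentile (scanner signals) of 7 ribosomal protein genes, and the within-array difference of Rps27l and Rps27, for each of the 18 arrays by dose; circles are RiboPure and triangles PAXgene arrays, and bars are the mean and SD. Rps27l is higher on all irradiated arrays than on all 0 Gy arrays but 1, while Rps27, Rpl41 and Rpl38 overlap between doses and the PAXgene arrays have the highest Rps27.

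The other genes that rose in the scanner signals were among the most abundant, with mean rank percentiles from 99.65 (Rpl39) to 99.92 (Rpl41). Rpl41, the shortest protein of the ribosome, had a log2 level of 9.21 at the lowest, 10.01 at the median and 10.59 at the highest at 0 Gy, and of 10.09, 10.66 and 11.24 at 8 Gy, so the groups overlapped. Its log2 fold change was 0.98 ± 0.28 (limma adjusted p = 0.0385). Rpl38, which in mice is needed for the translation of Hox messenger RNAs, lay between 8.09 and 9.61 in the controls and between 9.09 and 9.73 after 8 Gy, with 0.82 ± 0.23 (adjusted p = 0.0375). Rps12, a small subunit protein, had 0.88 ± 0.27 (adjusted p = 0.0453), and Rps29 and Rpl39, of the small and the large subunit, had 0.77 ± 0.25 (0.0494) and 0.70 ± 0.22 (0.0496). These adjusted p lie close to the threshold. Rplp2 (0.82 ± 0.28, 0.0623) and Rplp1 (0.80 ± 0.26, 0.0522) missed it. The same 5 genes in the deposited values had log2 fold changes between -0.06 (Rps29) and 0.11 (Rpl38), none past the threshold, and Rps27l had 0.73 ± 0.28 (0.0958).

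Rpl27a, a large subunit protein, was the gene that fell. Its log2 level was 2.59 to 3.40 at 0 Gy (median 3.06), 2.36 to 3.03 at 2 Gy and 2.24 to 2.91 at 8 Gy (median 2.39). Of the 8 Gy arrays only replicate 1 reached into the 0 Gy range. The log2 fold change was -0.53 ± 0.17 (adjusted p = 0.0492). Rpl6, also of the large subunit, came to -0.56 ± 0.19 (limma adjusted p = 0.0594), and there too replicate 1, at 6.15, was the 8 Gy array within the range of the 0 Gy arrays.

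In the deposited table the same 77 genes gave another picture. There none rose at 8 Gy and 25 fell (32.5% of the 77), where 8.41% of all genes were called: 3.79% of the 13545 were higher and 4.61% lower. Their median was -0.49, beside -0.02 for all genes, and 5 of the 77 lay above 0. Of all genes called, 63.4% were higher in the scanner signals and 45.1% in the deposited table. Quantile normalisation of the scanner signals gave 25 genes lower and none higher too, and these were the 25 of the deposited table. Only Rpl27a fell in both the scanner signals and the deposited table.

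The largest falls in the deposited table were those of Rpl6 (-1.06 ± 0.21, limma adjusted p = 0.0124), Rps18 (-0.97 ± 0.24, 0.027), Rpl8 (-0.96 ± 0.26, 0.033), Rpl30 (-0.92 ± 0.24, 0.0298), Rps3a (-0.91 ± 0.24, 0.033) and Rpsa (-0.90 ± 0.26, 0.0435). Rpl8 is a core protein of the large subunit, Rps18 lies in the head of the small subunit, and Rpsa is also known as the laminin receptor. Their scanner values were -0.56, -0.19, -0.36, -0.38, -0.34 and -0.46, none past the threshold. The fall of Rps27 there was 0.69 on the log2 scale (0.0314). Rps18 had deposited log2 values between 16.54 and 18.08 at 0 Gy (median 17.10) and between 15.90 and 16.88 at 8 Gy (median 16.07). Again 8 Gy replicate 1 was the highest of its group and the array that overlapped with the controls.

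Leaving out single arrays moved the count of falls in the deposited table from 1 to 38 and the median from -0.63 to -0.40. Without 8 Gy replicate 1 the count was 38 (17.4% of all genes called), and without 0 Gy replicate 5 it was 33 (17.5% called), with 1 gene higher. It was 32 and 25 with 2 Gy replicates 3 and 4 set aside in turn, and 29 with 0 Gy replicate 4 set aside. Of all genes, 13.6%, 10.5% and 7.03% were called in these fits. The count was at most 16 for each of the other arrays, where at most 6.14% were called. It was 1 when replicate 1 or 2 of the controls was set aside, where 1.51% and 2.42% of all genes were called. It was 19 with the slide as a random block and 2 among RiboPure arrays, where 4.71% and 2.04% of all genes were called. It was 0 with slide as a fixed block or with array brightness as a covariate, where 0 of all genes were called. The medians of these fits were, in order, -0.57, -0.49, -0.79 and -0.40. On the slide that held 1 array of 0 Gy and 2 of 8 Gy, 1 of 77 genes lay above 0 in the deposited table (median -1.14) and 15 in the scanner signals (median -0.36). The 0 Gy array there, replicate 1, had the highest deposited median of all 18 arrays (0.39, against each gene's 0 Gy mean). The 8 Gy arrays there, replicates 3 and 4, had -0.65 and -0.81, the latter being the lowest of all.

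**Figure D2:**
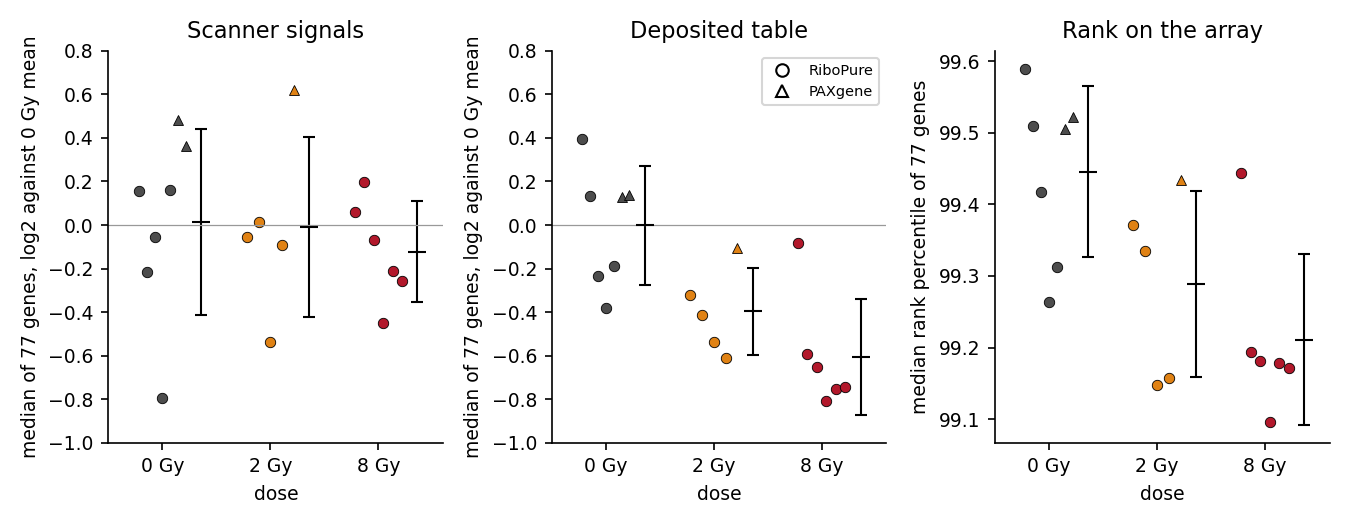
Median over the 77 tested ribosomal protein genes on each array, as log2 against each gene's 0 Gy mean in the scanner signals (left) and in the deposited table (middle), and as the rank percentile among all probes (right); circles are RiboPure and triangles PAXgene arrays, and bars are the mean and SD. In the scanner signals the doses overlap (means of 0.014, -0.010 and -0.12), whereas 5 of the 6 arrays at 8 Gy lie below all 0 Gy arrays in the deposited table; the PAXgene arrays are the highest of their dose in the scanner signals.

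Array by array, the median of the 77 genes in the deposited table was -0.38 to 0.39 at 0 Gy, -0.61 to -0.10 at 2 Gy and -0.81 to -0.08 at 8 Gy, and the 8 Gy array at -0.08 was replicate 1. In the scanner signals the ranges were -0.80 to 0.48, -0.54 to 0.62 and -0.45 to 0.20. Ranks, which need no scaling, gave medians of 99.26 to 99.59 at 0 Gy, 99.15 to 99.43 at 2 Gy and 99.10 to 99.44 at 8 Gy. By rank, replicate 1 was again the 8 Gy array that overlapped with the controls. In the deposited table all arrays have nearly the same distribution, so its values follow these ranks. The ranks are therefore no separate check on that table.

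The arrays also differed in how far their top lies above their upper quartile. The 99th percentile of the scanner signals lay 6.64 ± 0.31 (SD, n = 7) above the 75th on the log2 scale at 0 Gy, 7.00 ± 0.23 (n = 5) at 2 Gy and 7.08 ± 0.21 (n = 6) at 8 Gy. The difference between 8 and 0 Gy was 0.44 (exact permutation test, 2-sided, p = 0.0152, adjusted over 3 comparisons 0.0455) and that between 2 and 0 Gy was 0.36 (p = 0.0568, adjusted 0.0852, exact). The test has no kit term, and the RiboPure arrays at 0 Gy had 6.55 ± 0.32 (SD, n = 5). Setting an array to its 75th percentile leaves this distance in the values, and quantile normalisation takes it out. The measure was chosen after the values had been seen.

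**Figure D3:**
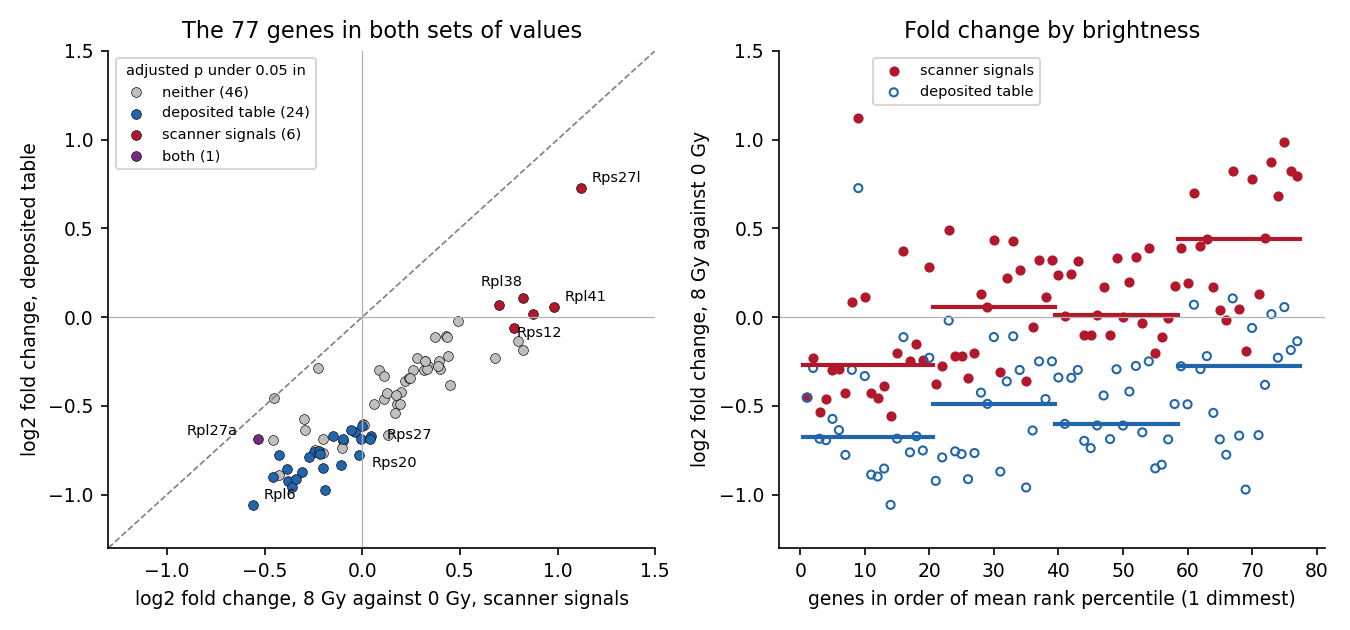
Log2 fold change at 8 Gy against 0 Gy of the 77 genes in the scanner signals and in the deposited table (left, dashed line of equality), and the same folds with the genes ordered by mean rank percentile (right; bars are the medians of 4 groups of 19 or 20 genes). All 77 genes lie below the line, and the brightest group has the highest median in both sets of values.

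The shift between both sets of values was largest for 4 of the 5 brightest genes: from scanner to deposited values the fold at 8 Gy moved by -1.01 for Rplp2, -0.93 for Rplp1, -0.93 for Rpl41 and -0.91 for Rpl37a, with a median of -0.58 over the 77. The fold also differed with the level of the gene. In order of rising brightness, groups of 19 or 20 genes had medians of -0.27, 0.06, 0.01 and 0.44 in the scanner signals and of -0.68, -0.49, -0.60 and -0.28 in the deposited table. Across the 77 genes, which share the same arrays, Spearman's rho between mean rank percentile and fold was 0.62 in the scanner signals and 0.29 in the deposited table, and Pearson's r was 0.37 and 0.02. Genes are not independent replicates, and these values describe these arrays only.

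Different probes of a gene were compared next. Of the 36 genes with more than 1 probe past the filter, 8 had probes of opposite sign at 8 Gy. The brighter Rps12 probe, at a mean percentile of 99.9, had 0.88 and the dimmer, at 44.4, had -0.56. Rps24, a small subunit protein mutated in Diamond-Blackfan anaemia, had 0.39 at its brightest probe (99.6) and -0.89 and -0.77 at 2 dimmer ones (69.8 and 51.8). Rpl37 had 0.28 at its bright probe and 1.66 at a probe well above background on 5 arrays. With every probe fitted on its own, none of these dimmer probes passed the threshold.

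At 2 Gy no member passed the threshold in either set of values, and 8 of all 13544 genes did (0.0591%). Without adjustment, 10 members had limma p under 0.05 in the scanner signals, 7 higher and 3 lower, beside 20.5% of all genes. Rps27l (1.10), Rpl41 (0.88) and Rps12 (0.73) led the higher and Rpl27a (-0.41), Rpl6 (-0.43) and Rpl4 (-0.50) were the lower. In the deposited values, unadjusted limma p was under 0.05 for 38 of the 77 members, 1 higher and 37 lower. It was so for 2718 of all 13545 genes there. The median was 0.02 in the scanner signals and -0.40 in the deposited table, where 4 of 77 genes lay above 0. Without 0 Gy replicate 5, 4 members rose in the scanner signals, where 7.18% of all genes were called, and in the deposited values there was 1 rise and 4 falls, where 5.8% were called. Without 8 Gy replicate 1, 2 fell in the deposited values, where 1.73% of all genes were called. The comparisons of 2 and 8 Gy share the 0 Gy arrays. Between 8 and 2 Gy no member and 0 of all genes were called in limma, with medians of 0.03 and -0.11, no member at an unadjusted p under 0.05 in the scanner signals, and 422 of all genes (3.12%) at that level.

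Members with known roles outside the ribosome, or used as reference genes, had these values at 8 Gy. Rpl5 and Rpl11, the binders of Mdm2, had -0.11 ± 0.25 and -0.03 ± 0.17 in the scanner signals, and both fell in the deposited table (-0.83, limma adjusted p = 0.0473, and -0.65, 0.045). Rpl23 and Rpl26, also linked to Mdm2 and p53, had -0.06 and 0.11, of which Rpl23 fell in the deposited table (-0.64, 0.0361). Rps6, the substrate of S6 kinase, had -0.27 and fell in the deposited table (-0.79, 0.0342), as did Rps3, which also has roles in DNA repair (-0.10 and -0.69, 0.0228). Rpl13a, often used as a reference gene, had -0.31 and fell there (-0.87, 0.0379), and so did Rps4x (-0.20 and -0.85, 0.0193) and Rpl3 (-0.22 and -0.76, 0.0399). Rps19, the gene most often mutated in Diamond-Blackfan anaemia, had 0.06 and -0.49, Rps7 0.17 and -0.44, Rps14 0.45 and -0.38, and Rps27a, which is made as a fusion with ubiquitin, 0.24 and -0.34, with no call in either. Rpl10 had 0.32 and -0.25 and Rpl22 -0.24 and -0.75, also without a call.

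Genes that work with the ribosome were set beside the family, and their counts are read against the shares of all genes given above. Of 49 ribosome biogenesis factors tested, 12 fell in the scanner signals, where 4.4% of all genes were lower, and 11 in the deposited table, where 4.61% were, and none rose. The medians were -0.64 and -0.70. Fbl, the methyltransferase fibrillarin, had -1.02 ± 0.23 (limma adjusted p = 0.0177), Rrp15 had -1.39 ± 0.34 (0.0227) and Npm1, nucleophosmin, had -0.84 ± 0.21 (0.0267) in the scanner signals. The count of 12 became 18 when 0 Gy replicate 5 was set aside, where 992 of all 13544 genes were lower. It became 33 without 8 Gy replicate 1, where 1168 were lower. With 2 Gy replicates 3 and 4 left out in turn it was 13 and 15, where 919 and 697 genes were lower. It was 1 to 9 with any one of the other arrays left out, where 114 to 435 genes were lower. The median of the biogenesis factors stayed between -0.81 and -0.56.

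Mitochondrial ribosomal proteins, which serve the ribosome inside mitochondria, had 1 of 75 higher and 1 lower in the scanner signals (median -0.39) and 4 lower in the deposited table (median -0.49), shares near or below those of all genes. Of 35 initiation factors and their regulators, 2 were higher in the scanner signals, where 7.63% of all genes were. They were Eif4ebp1, an mTOR-controlled repressor of translation (1.06, adjusted p = 0.0357), and Eif2ak2, a kinase that is switched on by double-stranded RNA (0.66, 0.0441). In the deposited table neither passed (0.63, 0.0832, and 0.65, 0.0533), and 4 other initiation factors fell there. Of 12 elongation factors none was called in the scanner signals (median 0.04), and Eef1g fell in the deposited table (-0.98, 0.0168). With normexp background correction 28 of the 75 mitochondrial ribosomal proteins fell (median -0.59), as did 25 of the 49 biogenesis factors. So did 13 of the 35 initiation factors and 2 of the 12 elongation factors, where 8.42% of all genes were lower. Under normexp 8 Gy replicate 1 stood apart. Its median over the cytosolic ribosomal protein genes, as log2 against each gene's 0 Gy mean, was -2.01, where its scanner value was 0.06. The other 8 Gy arrays had -0.74 to -0.10 under normexp. The part of this array in the normexp falls was not tested. Without 8 Gy replicate 1, 23 mitochondrial ribosomal proteins fell in the scanner signals and 28 in the deposited table.

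Markers of blood cell types moved with dose beside these results. Of 15 B cell markers 14 fell at 8 Gy in both sets of values (medians of -3.10 in the scanner signals and -3.33 in the deposited table). Their summed level, in multiples of the array's 75th percentile, was 65.6 to 413 at 0 Gy, 13.3 to 63.9 at 2 Gy and 10.7 to 129 at 8 Gy. With 0 Gy replicate 5 and 8 Gy replicate 1 set aside it was 187 to 413 and 10.7 to 31.3. 8 Gy replicate 1 was singled out by these same B cell markers, so the gap between the groups follows partly from that choice. All 13 mature neutrophil markers rose in the scanner signals and 12 in the deposited table (medians of 2.31 and 1.98), with summed levels of 516 to 2870 at 0 Gy and 1754 to 4383 at 8 Gy, or 516 to 1101 and 3105 to 4383 without these arrays. Of 16 T cell markers 2 fell in each set of values (medians of -0.33 and -0.45), with summed levels of 89.2 to 228 and 62.4 to 98.7.

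Erythroid and platelet markers had other counts in the deposited table than in the scanner signals. Of 16 erythroid and reticulocyte markers 3 rose in the scanner signals (median 0.86), and none was called in the deposited table (median 0.17), where all 16 lay above 0. Their summed level was 5346 to 11114 at 0 Gy and 9204 to 27429 at 8 Gy. Of 12 platelet and megakaryocyte markers 5 rose in the scanner signals (median 1.04) and none was called in the deposited table (median 0.53), and all 12 lay above 0 in both. Their summed level was 1142 to 4570 at 0 Gy and 2715 to 5755 at 8 Gy, or 1142 to 2580 and 4392 to 5755 without the arrays that stand apart. With single arrays left out, the scanner counts ran from 0 to 8 for the erythroid markers and from 0 to 12 for the platelet markers, the highest without 0 Gy replicate 5. Without 8 Gy replicate 1 they were 7 and 9. Of all 13544 genes, 2094 were higher without 0 Gy replicate 5 and 1758 without 8 Gy replicate 1. With any one of the other arrays left out, 166 to 1455 genes were higher, so the marker counts moved with the calls over all genes. None of 9 NK and cytotoxic markers was called in either set (medians of 0.23 and 0.04), and 1 of 8 monocyte markers rose in each (medians of -0.005 and -0.26). None of the listed markers on the array was at background on all arrays. The part of these cell types in the values of the ribosomal protein genes was not tested.

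The family was higher on the arrays made with PAXgene RNA. In the scanner signals 13 of the 77 genes were higher with PAXgene than with RiboPure and none was lower, where 2.12% of all genes were higher and 1.4% lower. The median was 0.62 (1.53-fold), beside 0.08 for all genes, and 74 of 77 lay above 0. In the deposited values 5 were higher, all of them among the 13, where 2.29% of all genes were higher and 1.6% lower, with a median of 0.27 and 62 above 0. The largest differences were those of Rplp0, the stalk base of the large subunit (1.77 ± 0.32, limma adjusted p = 0.00668), Rpl35 (1.31 ± 0.28, 0.0183), Rps10 (1.22 ± 0.26, 0.018) and Rps3 (1.11 ± 0.21, 0.00853). Rps27l (-0.49, 0.426), Rpl3 (-0.24, 0.636) and Rpl21 (-0.19, 0.863) lay below 0.

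Rplp0 had the largest difference. Its log2 level was 7.85 and 7.20 on the PAXgene arrays at 0 Gy and 8.22 on that at 2 Gy. The RiboPure arrays had 4.96 to 6.60 at 0 Gy, 5.50 to 6.62 at 2 Gy and 6.14 to 6.63 at 8 Gy, so each PAXgene array lay above each RiboPure array. For Rpl35 the PAXgene arrays had 8.21, 7.61 and 8.47 and the highest RiboPure array had 7.36.

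**Figure D4:**
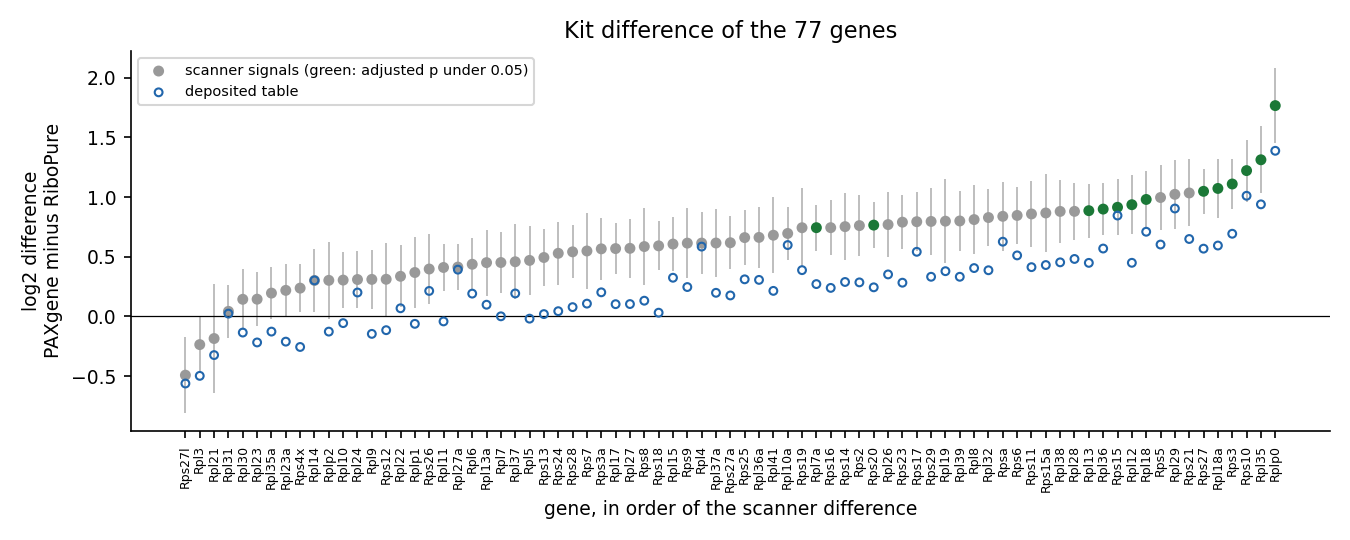
Log2 difference between PAXgene and RiboPure arrays for the 77 genes, in order of the scanner difference; filled points with SE bars are scanner signals (green with adjusted p under 0.05) and open points the deposited table. Of the scanner differences 74 lie above 0 and 13 pass the threshold, and most of the deposited values are smaller.

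The PAXgene arrays were 3 and lay on 2 slides that held no RiboPure array, so kit and slide cannot be told apart. The count of 13 fell to 1 without 0 Gy replicate 6 and to 0 without 2 Gy replicate 5, both PAXgene arrays, with medians of 0.66 and 0.63. Of all genes 0.532% were called in the first of these fits. In the second 0 of all genes were higher and 35 lower, so no member could be called higher. With 0 Gy replicate 2 left out the count of members was 5, where 1.82% of all genes were called. Leaving out 2 Gy replicate 1 or 2 gave 7 (2.37%) or 8 (2.78%) in that order. The count was higher without 0 Gy replicate 5 (18, with 4.56% called), 0 Gy replicate 4 (16, 5.45%) or 2 Gy replicate 3 (14, 3.76%). With any one of the remaining arrays left out it was 9 to 13, where 2.86% to 4.48% of all genes were called. Without 8 Gy replicate 1 it was 12 (3.15%). Markers of several cell types also differed with the kit. All 16 T cell markers lay above 0 with PAXgene, with a median of 0.77, and 1 was called (Cd3d, 1.20, limma adjusted p = 0.0457), a count of 0 to 2 with single arrays left out. Their summed level was 195 to 228 on the PAXgene arrays and 49.7 to 175 on the RiboPure arrays of the same doses, 0 and 2 Gy. Of 15 B cell markers 13 lay above 0 (median 0.46), of 9 NK and cytotoxic markers 8 did (median 0.54), and of 13 mature neutrophil markers 11 lay below 0 (median -0.40, and -0.56 in the deposited table), with no call in the scanner signals for these lists. Their part in the kit difference was not tested.

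The Rplp0 probe is the member probe that the array's annotation (mm7) places on a chromosome other than that of its RefSeq gene. It is placed at chr8:101459316-101459375, while RefSeq has Rplp0 on chromosome 5. Both other probes of Rplp0 carry the older name Arbp, which the name rule leaves out, and lie on chromosome 5. The member probe and the Arbp probe at chr5:114782273-114782332 are shown since they gave different kit and level values, in lower case with no part marked.
Rplp0 probe: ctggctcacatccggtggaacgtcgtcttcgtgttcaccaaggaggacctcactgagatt
Arbp probe: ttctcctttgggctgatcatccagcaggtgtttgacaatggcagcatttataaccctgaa

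The kit difference was 1.77 at the Rplp0 probe and 1.15 and 0.12 at the Arbp probes. At 8 Gy the Rplp0 probe had 0.49 in the scanner signals and the Arbp probes 0.67 and 0.88, none past the threshold when each probe was fitted on its own. The mean rank percentile was 98.6 for the Rplp0 probe and 99.75 and 99.94 for the Arbp probes. Values given here for Rplp0 are those of the probe placed on chromosome 8.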

How the data were processed

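Blood RNA of 18 mice was measured on single-colour Agilent arrays (design 014868; probe positions mm7, per the file headers). Signals were extracted with Agilent Feature Extraction 9.5.3.1, per the file headers, and the processed intensity of each spot, which the authors deposited, is background-subtracted and detrended within an array. The deposited table of the series holds linear intensity values whose arrays share nearly 1 distribution; the submitters' processing notes also name limma. Main values were log2 of the processed intensity deposited for each spot, minus the array's 75th percentile; 45 flagged values were left out. Of 41174 probes, 22038 were well above background on at least 5 arrays, and the probe of highest mean stood for each of 13545 genes. limma 3.58.1 (R 4.3.3) fitted dose and RNA kit, 2-sided, with Benjamini-Hochberg adjustment over all genes and a threshold of 0.05. The deposited table was fitted the same way after log2. The script was tested on simulated data. The labels name separate mice; the number of arrays limits the precision.

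The members, gene lists and named genes were chosen with earlier results of these data known. Named genes were a list of members with known roles, the largest changes past the threshold (6 each way by dose, 4 by kit), the 5 brightest and dimmest, the 4 that moved most between sets of values and the 3 whose probes differed most. Alternatives changed the normalisation, background correction (normexp, offset 50), scaling, filter, probe rule, blocks, kit term and arrays. The sample labels give cesium 137 and the design text cesium 138 as the source.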

Additional observations from a re-analysis of the deposited data

Results flagged for a closer look

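Within each dose, the highest and the lowest array were compared with the nearest other array for each named gene. Of 177 groups of values, 21 had an array that stood off from the rest by a 95% criterion; chance gives about 1 in 20. 0 Gy replicate 4 was the lowest of its dose in the scanner signals (log2) for Rpl10 (6.73), Rpl22 (5.40), Rpl23 (6.87), Rpl26 (6.25), Rpl5 (7.55) and Rps7 (6.64).

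8 Gy replicate 1 was the highest of its dose in the deposited table (log2) for Rpl22 (14.1), Rpl26 (15.3), Rpl27a (10.4), Rpl3 (14.5) and Rps4x (16.2), for the median of the 77 genes (-0.081, where the nearest array had -0.59), and for Rpl27a in the scanner signals (2.91). 2 Gy replicate 5, the PAXgene array of its dose, was the highest in the scanner signals for Rpl11 (8.95), Rps3 (9.11) and Rpl3l (-0.81) and in the deposited table for Rpl26 (15.1), Rps3 (15.96), Rps6 (14.2) and Rpl3l (6.64). 8 Gy replicate 2 was the lowest for Rpl38 in the deposited table (16.3).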

How the results depend on the processing

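The count of genes higher at 8 Gy than at 0 Gy, 6 in the scanner signals, was 0 with quantile normalisation, the deposited table (both also with every probe), normexp, median scaling, RiboPure arrays only, the replicate block, brightness as a covariate or slide as a fixed block. It was 1 with no filter or with slide or scan day as a random block, 2 without the kit term and 3 with scaling on probes well above background everywhere. The count lower, 1, was 25 with quantile normalisation and in the deposited table (22 and 23 with every probe), 14 with normexp, 5 with that scaling, 2 with the strict filter or without the kit term, and 0 with median scaling, no filter, the mean of probes, either random block, RiboPure only, the replicate block, brightness or the fixed slide block. The median, 0.06, was -0.50 with quantile normalisation, -0.49 in the deposited table, -0.55 with normexp and -0.49 in both every-probe versions. Under normexp the array median of 8 Gy replicate 1 was -2.01, where the other 8 Gy arrays had -0.74 to -0.10. The part of this array in the normexp median and in the 14 falls was not tested. The 2 Gy median was -0.41, -0.40, -0.42 and -0.41 in the quantile, deposited and both every-probe fits. Rps29 turned to -0.059 at 8 Gy with quantile normalisation and to -0.061 in the deposited table. The cause was not tested. At 8 Gy 12% of all genes were called in the scanner signals, 8.45% (quantile), 8.41% (deposited) and 15.3% (normexp). Shares were 3.57% (median scaling), 2.16% (RiboPure only), 1.82% (replicate block) and 2.83% (no filter). They were 4.61% and 6.4% (slide and scan day as random block), 14.5% (no kit term) and 17% (scaling on probes well above background everywhere). With brightness or the fixed slide block 0% were called, so no member could be.

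The kit count of 13 was 4 (quantile), 5 (deposited, median scaling, slide or scan day block), 1 (normexp) and 6 (no filter). It was 20 (scaling on probes well above background everywhere), 29 (every probe), 8 (quantile, every probe) and 0 with the replicate block. In each every-probe fit 1 probe was lower. Of all genes, 3.52% were called by kit in the main fit, 3.96% (quantile), 3.89% (deposited) and 2.58% (median scaling). Shares were 1.58% and 1.84% (slide and scan day block), 0.738% (normexp), 1.62% (no filter) and 4.74% (that scaling). They were 6.18% (every probe), 5.7% (quantile, every probe) and 0.0222% (replicate block). In the deposited table the 25 falls at 8 Gy became 2 (RiboPure only) and 0 (brightness or fixed slide block). There 2.04% and 0% of all genes were called. Without the kit term 1 gene rose, where 13.6% were called, and the 5 kit calls became 1 with a slide block (1.89%). With single arrays left out, scanner counts ran 0 to 10 higher and 0 to 2 lower at 8 Gy, 0 to 4 higher at 2 Gy and 0 to 18 by kit; medians ran -0.09 to 0.19, -0.08 to 0.11 and 0.54 to 0.70, and -0.07 to 0.11 for 8 against 2 Gy. Rps27l minus Rps27 ran 0.98 to 1.63 at 2 Gy and 1.34 to 1.76 at 8 Gy. Deposited counts ran 1 to 38 lower and 0 to 1 higher at 8 Gy, 0 to 4 lower and 0 to 1 higher at 2 Gy and 0 to 6 by kit; medians ran -0.63 to -0.40 and -0.46 to -0.32. Arrays of the same replicate number were not clearly paired. Of 16 same-numbered pairs 8 had a correlation over 0.1 (-0.34 to 0.48), and 2 of 18 arrays correlated best with their own number. These values cannot exclude that same-numbered mice were handled together. With the replicate block the 8 Gy median was 0.06. Slide as a fixed block, the every-probe quantile and deposited fits, the alternatives of the deposited table's own fit, and the single arrays left out for the other gene lists were chosen after seeing the data. Brightness over background limits Rpl3l and the dimmer probes.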
